A study of Mus musculus with 9 samples.

Results

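The comparison described here set cardiomyocytes from newborn pups of mothers fed a full high-fat diet (HFD) against those from pups of mothers fed a normal diet (ND). It rested on 6 RNA-seq libraries, 3 per diet, of the 9 in the series. The other 3 came from mothers on a slight high-fat diet (sHFD) and only lent their spread to the test. All pups were wild-type C57BL/6J, the cells were isolated from the heart on postnatal day 0, and the mothers had been assigned to a diet at random for the whole of pregnancy. The sources used here do not give the fat content of the diets, the sex of the pups, the number of hearts in a library or the means of isolation. Whether replicates of a diet were separate litters is not stated, and p-values therefore reflect only how far these libraries scatter, which may be technical. Expression was given as TPM, transcript abundance scaled to the same total in every library. That unit carries no sequencing depth, so depth and the precision it gives are unknown. Of 18738 genes in the table, 13615 averaged 1 TPM or more across the 6 libraries and were compared on the log2(TPM + 1) scale, which understates the change of low genes. Every log2 difference below is HFD minus ND on that scale.

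In the mouse, heart muscle cells divide through fetal life and take much of their energy from glucose and lactate. Around birth, they leave the cell cycle and turn to fatty acids, a switch in which the nuclear receptors of the PPAR family take part by raising genes of lipid uptake, storage and oxidation. Mitotic genes are switched on late in the cell cycle by factors that bind promoter motifs known as the CCAAT box and the cell cycle genes homology region (CHR). An isolate of heart muscle cells also carries some endothelial cells, pericytes, fibroblasts and resident macrophages, whose transcripts are read with those of the muscle.

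The libraries were heart muscle by their markers, with other cells present. The 18 cardiomyocyte identity genes summed to between 29319 and 52271 TPM in the ND libraries and between 34945 and 42730 TPM in the HFD libraries, and 0 of the 18 passed the limma test described below, with 0 at an unadjusted p under 0.05. Markers of fibroblasts (12 genes, 10183 to 12625 TPM in ND and 10038 to 11097 TPM in HFD) and of endothelium (12 genes, 3953 to 6018 and 4235 to 4921 TPM) overlapped between the diets, and 0 of either list passed limma's test, with 2 of each at an unadjusted p under 0.05. The 14 leukocyte markers were lower in HFD without overlap (578 to 833 against 331 to 392 TPM), and the sum of the 9 epicardial markers was higher without overlap (351 to 434 against 499 to 533 TPM). Of these 9, 1 rose (Upk1b, log2 0.80, SE 0.23, limma adjusted p = 0.0443) and 1 fell (Aldh1a2, which makes retinoic acid, log2 -0.86, SE 0.23, limma adjusted p = 0.0352). The HFD mean of 4 was above all 3 ND libraries, against 15.4% of all genes. Higher without overlap were 3, against 5.08% of all genes. No epicardial marker passed without ND replicate 2, ND replicate 3, HFD replicate 1 or HFD replicate 2, against 4 at an unadjusted p under 0.05 with all libraries. Red cell markers were also lower without overlap, at 8059, 8048 and 18762 TPM in ND replicates 1 to 3, with replicate 3 the highest, and 4252 to 7717 TPM in HFD. Of the 6 red cell genes tested 1 fell (16.7%), or 0 without ND replicate 3, and 6 had an unadjusted p under 0.05. The 21 immediate-early and heat-shock genes, which rise within minutes of cell stress, summed to 13147, 3266 and 7083 TPM in ND replicates 1 to 3 and to 9516 to 14829 TPM in HFD, so ND replicate 1 lay among the HFD libraries. No listed marker was at 0 in all 6 libraries. In bulk samples, fewer cells of a type and less RNA per cell cannot be told apart.

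**Figure D1:**
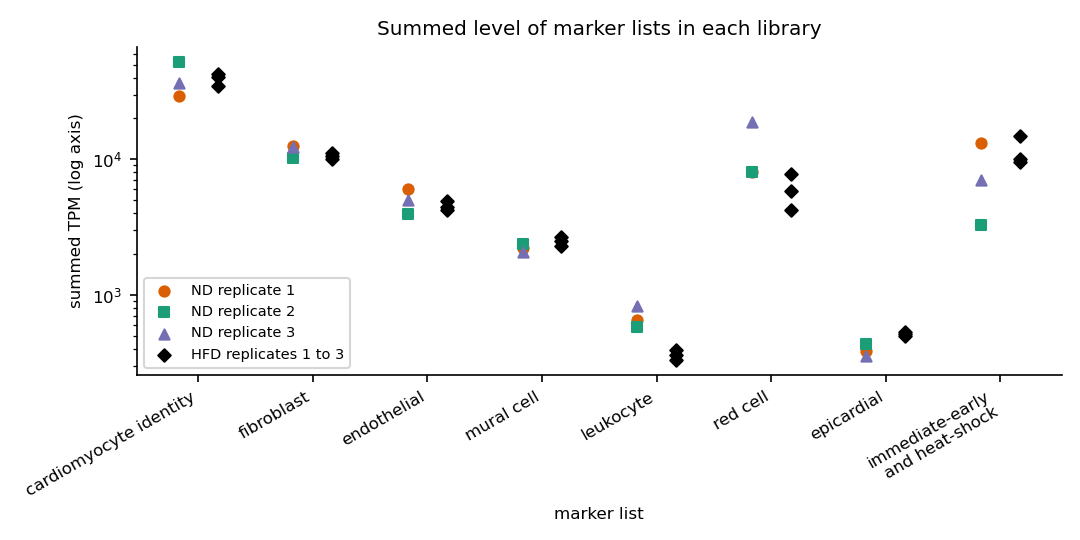
Summed TPM of 8 marker lists (log axis) in each of the 3 ND libraries (coloured symbols, 1 per replicate) and the 3 HFD libraries (black diamonds). The sums of the leukocyte and red cell markers lie lower and those of the epicardial markers higher in all 3 HFD libraries, while for the immediate-early and heat-shock list ND replicate 1 (13147 TPM) lies within the HFD range.

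Of the 13615 genes compared, 1479 (10.9%) passed an adjusted p of 0.05 in limma, a linear model fitted to all genes with Benjamini-Hochberg adjustment. Most were lower in HFD: 1302 genes fell (9.56%) and 177 rose (1.3%). The median absolute log2 difference of these genes was 0.92, and 901 of the 1479 changed less than 2-fold, so the bulk of the response was of moderate size. The median log2 difference of all genes was -0.133, and medians of gene lists below are given relative to it. Counts of list members that fell or rose are given with their share, to be read against the 9.56% and 1.3% of all genes, and a share near those is no result about the list. At an unadjusted p under 0.05 were 4042 of the 13615 genes, and list counts at that level are to be read against this. Members and lists were chosen with earlier results of these data known, so the shares describe the lists and do not test them. After scaling to a common median ratio 672 rose and 990 fell (40.4% higher), after quantile normalization 438 rose and 656 fell (40.0% higher), and with a trend on GC content removed 652 rose and 1043 fell (38.5% higher), against 12.0% higher on the values as deposited. All of the called genes tested under these settings kept their direction, which choosing them by p on the same libraries makes likely. The diets did not overlap in 3791 genes (27.8%), with HFD above ND in 691 (5.08%) and below it in 3100 (22.8%). With 3 libraries against 3, an exact two-sided permutation test cannot give a p below 0.1, so no single gene was tested that way.

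The 3 ND libraries were unlike each other, and the count of genes moved with each. ND replicate 1 correlated with the HFD libraries at 0.975 to 0.983 (Pearson, log2 values across genes, which are not independent replicates), and with ND replicate 2 at 0.951 and ND replicate 3 at 0.973. Without ND replicate 1 limma called 3816 genes, without ND replicate 2 it called 623, without ND replicate 3 it called 38, without HFD replicate 1 it called 130 and without HFD replicate 2 it called 33. The smallest of these fits still had 2797 genes at an unadjusted p under 0.05. In each of them the 1479 genes kept their direction, which their selection on these same libraries makes likely. When only the 6 HFD and ND libraries were fitted, 456 genes passed (39 higher and 417 lower), 452 of which were among the 1479.

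Set against 1 ND library at a time, the full high-fat diet gave counts that differed from library to library. At least 1.5-fold higher than ND replicate 1 were 287 genes (2.11%), than ND replicate 2 1005 genes (7.38%) and than ND replicate 3 1474 genes (10.8%). At least 1.5-fold lower were 1258 genes (9.24%) against ND replicate 1, 3776 (27.7%) against replicate 2 and 2540 (18.7%) against replicate 3. All genes together had a median difference of -0.107, -0.229 and -0.0961 from the 3 libraries in that order. Of the 1479 called genes 0 lay on the wrong side of any ND library, which their selection with all 3 ND libraries makes likely. Against each ND library alone by at least 1.5-fold were 74 genes higher (0.544%) and 694 genes lower (5.10%), and 63 and 642 of them were among the called genes. A further 83 called rises and 540 called falls reached 1.5-fold against ND replicates 2 and 3 but not against replicate 1, so that a miss against replicate 1 was the most frequent way for a called gene to fall short.

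**Figure D2:**
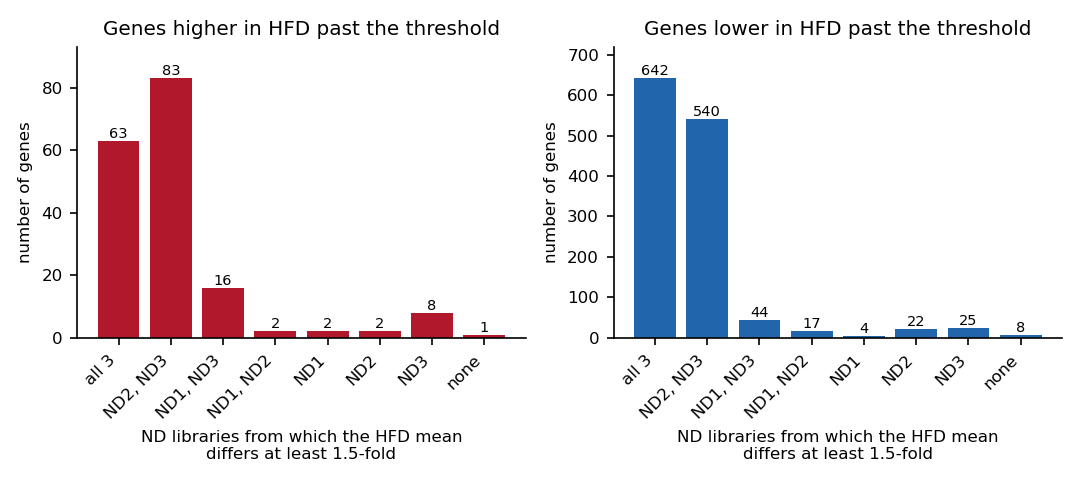
Numbers of genes past the threshold (left, higher in HFD; right, lower in HFD; the vertical scales differ) by the ND libraries from which the HFD mean differs at least 1.5-fold on the log2(TPM + 1) scale. Among rises 63 hold against all 3 ND libraries and 83 against replicates 2 and 3 only; among falls the numbers are 642 and 540.

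Fitted with a single ND library, limma called 3 genes against ND replicate 1, 3010 against replicate 2 and 1565 against replicate 3. There were 1490 genes at an unadjusted p under 0.05 in the first of these fits. The lone ND library is assumed there to vary like the others. The 3 genes called against replicate 1 were Nppb, the B-type natriuretic peptide of stretched ventricle, which rose, and Car3, a carbonic anhydrase abundant in slow muscle and fat, and Aqp7, a glycerol channel, which fell. They were also called against replicates 2 and 3. Nppb was 79.1, 40.1 and 98.4 TPM in ND replicates 1 to 3 and 854, 935 and 488 TPM in HFD replicates 1 to 3 (log2 3.41, SE 0.37, limma adjusted p = 0.00138). Car3 was 17.4, 16.3 and 14.3 TPM in ND and 0.94, 1.41 and 1.19 TPM in HFD (log2 -2.96, SE 0.19, limma adjusted p = 1.24e-05). Aqp7 was 19.9, 45.5 and 42.6 TPM in ND and 3.68, 4.57 and 5.27 TPM in HFD (log2 -2.67, SE 0.27, limma adjusted p = 0.00079). The diets were far apart in all 3 genes, and for Aqp7 ND replicate 1 was nearest to HFD. Their log2 differences from ND replicates 1 to 3 were 3.19, 4.15 and 2.88 for Nppb, -3.08, -3.00 and -2.81 for Car3 and -1.93, -3.09 and -2.99 for Aqp7. The 9 fits that left out a library called all 3.

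Among rises of moderate size, those under 1.3 on the log2 scale that held at 1.5-fold against each ND library, the 15 with the smallest p covered chromatin, the endoplasmic reticulum, contractile and membrane proteins and cell division. H1f2, a linker histone that compacts chromatin, was 188, 161 and 161 TPM in ND replicates 1 to 3 and 334, 372 and 389.7 TPM in HFD replicates 1 to 3, a log2 difference of 1.10, SE 0.16, limma adjusted p = 0.00489. The lowest HFD library was thus well above the highest ND library. Retreg1, a receptor that feeds endoplasmic reticulum into autophagy, was 65, 78.8 and 44.6 TPM in ND and 128, 168 and 164 TPM in HFD (log2 1.3, SE 0.20, limma adjusted p = 0.00752). Tnfrsf12a, the receptor for the cytokine TWEAK, was 56.4, 35.2 and 50.1 TPM in ND and 129.8, 126 and 89.5 TPM in HFD (log2 1.28, SE 0.22, limma adjusted p = 0.00934). In both genes, all HFD libraries lay above all ND libraries.

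Myh8, the perinatal myosin heavy chain of developing skeletal muscle, was 4.53, 3.99 and 4.11 TPM in ND and 11.7, 12.7 and 9.10 TPM in HFD (log2 1.21, SE 0.22, limma adjusted p = 0.01). Jph1, a junctophilin that ties the sarcoplasmic reticulum to the surface membrane, was 9.23, 9.40 and 5.72 TPM in ND and 19, 19.1 and 19.6 TPM in HFD (log2 1.18, SE 0.22, limma adjusted p = 0.0118), with the HFD libraries close together. Slmap, a tail-anchored membrane protein of the sarcolemma, was 124, 127 and 88.1 TPM in ND and 189, 256 and 266 TPM in HFD (log2 1.06, SE 0.19, limma adjusted p = 0.01). The low values of Myh8 and Jph1 mean that their folds are understated on this scale. Klf15, a transcription factor of amino acid and lipid metabolism that glucocorticoids raise, was 28.8, 14 and 21.7 TPM in ND and 48.1, 43.8 and 62.5 TPM in HFD (log2 1.26, SE 0.25, limma adjusted p = 0.0132). ND replicate 1 was the highest ND library and lay below every HFD library. Amotl1, a junction protein that binds YAP, rose by 0.70, Pard6b, a cell polarity protein, by 0.89, Rab20, a GTPase of the endocytic pathway, by 0.80, St8sia6, a sialyltransferase, by 1.13, Zfp568, a KRAB zinc finger repressor, by 0.99 and Proser2 by 0.92. The mitotic genes Ccnb1 and Ube2c completed the 15 and are described below. All 15 passed when ND replicate 1 or 2 was left out, 2 when ND replicate 3 was, 4 when HFD replicate 1 was and 1 when HFD replicate 2 was, and all 15 passed under each of the 3 scalings and in the fit of 6 libraries. The genes were chosen by small p and distance from each ND library, which favours passing and separated diets.

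**Figure D3:**
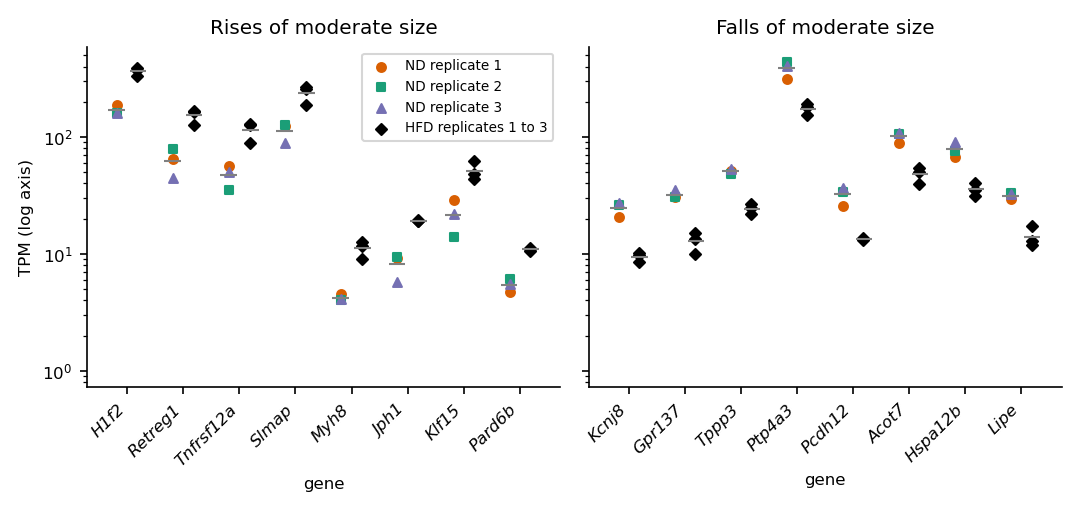
TPM (log axis) of 8 rises (left) and 8 falls (right) of moderate size in the 3 ND libraries (coloured symbols) and the 3 HFD libraries (black diamonds); grey lines are group means. In all 16 genes the HFD libraries lie clear of the ND libraries, which the rule that chose the genes favours, as in H1f2 (188, 161 and 161 TPM in ND against 334, 372 and 389.7 TPM in HFD).

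The falls chosen by the same rule included genes of vessel cells, lipid handling and signalling. Kcnj8, a potassium channel subunit of pericytes and smooth muscle, was 20.6, 26.1 and 27.3 TPM in ND and 9.77, 8.52 and 10.2 TPM in HFD (log2 -1.28, SE 0.18, limma adjusted p = 0.00401). Gpr137, a membrane protein of lysosomes, was 30.5, 30.4 and 35 TPM in ND and 13.3, 9.94 and 15.1 TPM in HFD (log2 -1.27, SE 0.18, limma adjusted p = 0.00442). Tppp3, which promotes tubulin polymerization, was 50.7, 48.3 and 53.1 TPM in ND and 26.5, 24.6 and 21.7 TPM in HFD (log2 -1.04, SE 0.15, limma adjusted p = 0.00489). In each of these genes every HFD library lay below every ND library. Ptp4a3, a phosphatase of growing vessels, was 316, 434 and 407 TPM in ND and 180.3, 155 and 190.4 TPM in HFD (log2 -1.13, SE 0.17, limma adjusted p = 0.00605).

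Pcdh12, a protocadherin of endothelial junctions, was 25.9, 34.1 and 36.8 TPM in ND and 13.5, 13 and 13.7 TPM in HFD (log2 -1.19, SE 0.18, limma adjusted p = 0.00608). Hspa12b, a heat-shock protein relative found in endothelium, changed by -1.10 and Ccm2, which stabilizes endothelial junctions, by -1.22. Of the 12 endothelial markers 0 passed, as given above, with a median of -0.0208 relative to all genes. Lipe, the hormone-sensitive lipase, was 29.2, 33.1 and 32.3 TPM in ND and 12.8, 12 and 17.3 TPM in HFD (log2 -1.13, SE 0.18, limma adjusted p = 0.00752), and Acot7, an acyl-CoA thioesterase, was 89.7, 107 and 108 TPM in ND and 50.1, 39.5 and 54.5 TPM in HFD (log2 -1.07, SE 0.16, limma adjusted p = 0.00644). Both genes were lower in every HFD library than in any ND library. Irf3, which carries innate immune signals to the nucleus, Vsir, an immune checkpoint ligand, Synpo, an actin-binding protein, Nck2, an adaptor of receptor kinases, Ppm1m, a phosphatase, and Arap1, a regulator of small GTPases, changed by between -1.24 and -1.01. All 15 passed when ND replicate 1 or 2 or HFD replicate 1 was left out, 4 when ND replicate 3 was and 3 when HFD replicate 2 was. As with the rises, the rule that chose the genes favours passing and separated diets.

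On the GRCm38 build, whose RefSeq positions are given here 1-based, H1f2 lies on chromosome 13 (23738807 to 23739531), Tnfrsf12a on chromosome 17 (23675445 to 23677449), Klf15 on chromosome 6 (90461043 to 90491803), Kcnj8 on chromosome 6 (142564837 to 142571614), Gpr137 on chromosome 19 (6938057 to 6942450) and Lipe on chromosome 7 (25379527 to 25398486).

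Genes of mitosis were higher in HFD against each ND library. Of the 42 members of the G2/M and mitosis list, 14 rose (33.3%) and 0 fell, and their median lay 0.741 above that of all genes. It lay 0.568, 0.690 and 0.912 above it against ND replicates 1, 2 and 3. The HFD mean of 42 of the 42 was above ND replicate 1, of 37 above replicate 2 and of 40 above replicate 3, and 37 (88.1%) were above all 3, against 15.4% of all genes tested. Counting members 1.5-fold or more above each ND library alone gave 5 genes, Nek2, Ccnb1, Ube2c, Aurka and Cenpf, the last pair named after their values were seen.

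Nek2, a kinase that parts the centrosomes, was 19.2, 9.49 and 8.86 TPM in ND and 34, 35.4 and 26.1 TPM in HFD (log2 1.35, SE 0.27, limma adjusted p = 0.0132), with ND replicate 1 nearest to HFD. Ccnb1, cyclin B1, differed by 0.87, 1.06 and 1.42 from ND replicates 1 to 3, and Ube2c, the ubiquitin-conjugating enzyme of the anaphase-promoting complex, by 0.72, 0.76 and 0.90. Aurka, the spindle pole kinase Aurora A, was 14.2, 11.6 and 10.5 TPM in ND and 32.7, 28.7 and 17.3 TPM in HFD (log2 1.02, SE 0.23, limma adjusted p = 0.0203). Cenpf, a kinetochore protein made in G2, was 11.3, 10.9 and 6.24 TPM in ND and 16.5, 21.1 and 17.5 TPM in HFD (log2 0.92, SE 0.25, limma adjusted p = 0.0334). HFD replicate 3 was the lowest HFD library in Nek2, Ccnb1, Ube2c and Aurka, and still above every ND library. The count of mitosis genes that rose was 25, 22 and 24 under the median-ratio, quantile and GC settings, 22 without ND replicate 1, 5 without ND replicate 2 and 0 without ND replicate 3, HFD replicate 1 or HFD replicate 2. It was 3 in the fit of the 6 HFD and ND libraries, without the spread lent by sHFD. On the values as deposited 27 of the 42 had an unadjusted p under 0.05.

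The promoters of these genes are shown because the mitosis list carried the CHR and CCAAT motifs more often than promoters at large. Windows of 300 bases, from 250 before to 50 after the transcript start, were taken from RefSeq on GRCm38.p6. They were searched on both strands for TTTGAA, the core of the CHR, and for CCAAT. Neither motif contains the other, though neighbouring matches can share end letters. TTTGAA was in 26 of 37 windows of 35 mitosis genes (70.3%) and in 12.1% of 13864 windows of genes tested, or 17.9% of all 32851 windows. CCAAT was in 29 of the 37 (78.4%) and in 37.6% and 37.4% of those sets, and both were in 23 (62.2%), against 5.03% and 6.95%. Among mitosis genes that rose, 8 of 12 windows held TTTGAA (66.7%) and 11 held CCAAT (91.7%). Of 175 windows of all genes that rose, 22.3% held TTTGAA and 47.4% CCAAT. The following 4 windows are printed 5′ to 3′ on the gene's strand, with matches to either motif on either strand in capitals: Ccnb1 at chr13:100786437-100786736 (minus strand), Ube2c at chr2:164769679-164769978 (plus), Aurka at chr2:172370521-172370820 (minus) and Cenpf at chr1:189688037-189688336 (minus).
Ccnb1: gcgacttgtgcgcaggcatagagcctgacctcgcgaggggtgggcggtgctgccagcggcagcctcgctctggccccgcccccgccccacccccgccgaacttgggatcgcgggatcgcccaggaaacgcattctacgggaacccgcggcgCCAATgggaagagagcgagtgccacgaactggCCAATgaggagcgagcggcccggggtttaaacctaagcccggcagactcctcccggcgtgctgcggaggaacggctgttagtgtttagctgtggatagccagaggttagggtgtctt
Ube2c: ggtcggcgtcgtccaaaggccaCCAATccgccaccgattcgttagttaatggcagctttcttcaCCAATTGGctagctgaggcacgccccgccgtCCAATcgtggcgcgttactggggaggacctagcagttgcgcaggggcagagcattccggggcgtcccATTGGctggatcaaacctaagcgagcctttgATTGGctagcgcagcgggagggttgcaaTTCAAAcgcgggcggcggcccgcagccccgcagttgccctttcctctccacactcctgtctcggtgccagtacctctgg
Aurka: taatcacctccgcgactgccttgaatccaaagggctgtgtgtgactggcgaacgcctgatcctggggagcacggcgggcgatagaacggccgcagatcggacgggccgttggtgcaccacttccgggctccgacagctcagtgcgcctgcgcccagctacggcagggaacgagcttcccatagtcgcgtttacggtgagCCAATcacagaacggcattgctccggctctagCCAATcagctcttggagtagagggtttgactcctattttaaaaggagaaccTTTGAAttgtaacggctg
Cenpf: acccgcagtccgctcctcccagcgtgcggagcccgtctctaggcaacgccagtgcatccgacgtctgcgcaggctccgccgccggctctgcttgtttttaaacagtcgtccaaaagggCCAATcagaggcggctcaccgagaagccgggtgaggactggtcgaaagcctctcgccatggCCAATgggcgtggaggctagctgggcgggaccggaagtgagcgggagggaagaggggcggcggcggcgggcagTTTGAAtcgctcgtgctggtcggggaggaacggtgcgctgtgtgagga
The Ccnb1 window holds 2 CCAAT matches and no TTTGAA, which says only that these letters are not in this window. The Ube2c window holds 6 CCAAT matches and 1 TTTGAA, and the other two hold 2 and 1 each. A match is a description of the letters and not evidence of binding.

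The kinetochore list, scaffold proteins that join chromosomes to the spindle, was mixed. Of 26 genes 2 rose (7.69%), Cenpl (log2 0.82, SE 0.22, limma adjusted p = 0.0339) and Cenpa, the centromeric histone, which was 77.8, 74.4 and 78.9 TPM in ND and 115, 132 and 92.1 TPM in HFD (log2 0.53, SE 0.16, limma adjusted p = 0.0451). Cenpo fell (log2 -0.71, SE 0.21, limma adjusted p = 0.0445). Of 40 DNA replication genes 1 rose (2.5%) and 4 fell (10%), shares close to those of all genes, while the median lay 0.28 below that of all genes. Pola2, a subunit of the primase complex, was 22.4, 35.3 and 30.8 TPM in ND and 13.8, 14.7 and 14.1 TPM in HFD (log2 -0.98, SE 0.20, limma adjusted p = 0.0141). Rpa3, a subunit of the single-strand binding protein, changed by -0.88 and Lig1, the ligase of the lagging strand, by -0.83. In all 3 genes the ND libraries were higher than the HFD libraries, and ND replicate 1 was the lowest of them.

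The replication list leaned on ND replicates 2 and 3. Relative to all genes its median was -0.0029 against ND replicate 1, -0.517 against replicate 2 and -0.303 against replicate 3, and 17 of its genes fell without ND replicate 1. Double-strand break and crosslink repair had the same order (0.115, -0.503 and -0.0828), with 4 of 34 genes falling (11.8%). These included Fancg and Fancc, of the Fanconi core complex, and Xrcc4, of the end-joining ligase, which changed by -1.06, -0.76 and -0.87. The sign of that list's median turned under quantile normalization (0.0432). Of the 14 called genes named in the paragraphs on cell division, 7 passed without ND replicate 2 and 0 without ND replicate 3, HFD replicate 1 or HFD replicate 2, where limma's unadjusted p was under 0.05 for all 14. The fit of 6 libraries kept 5 of the 14.

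**Figure D4:**
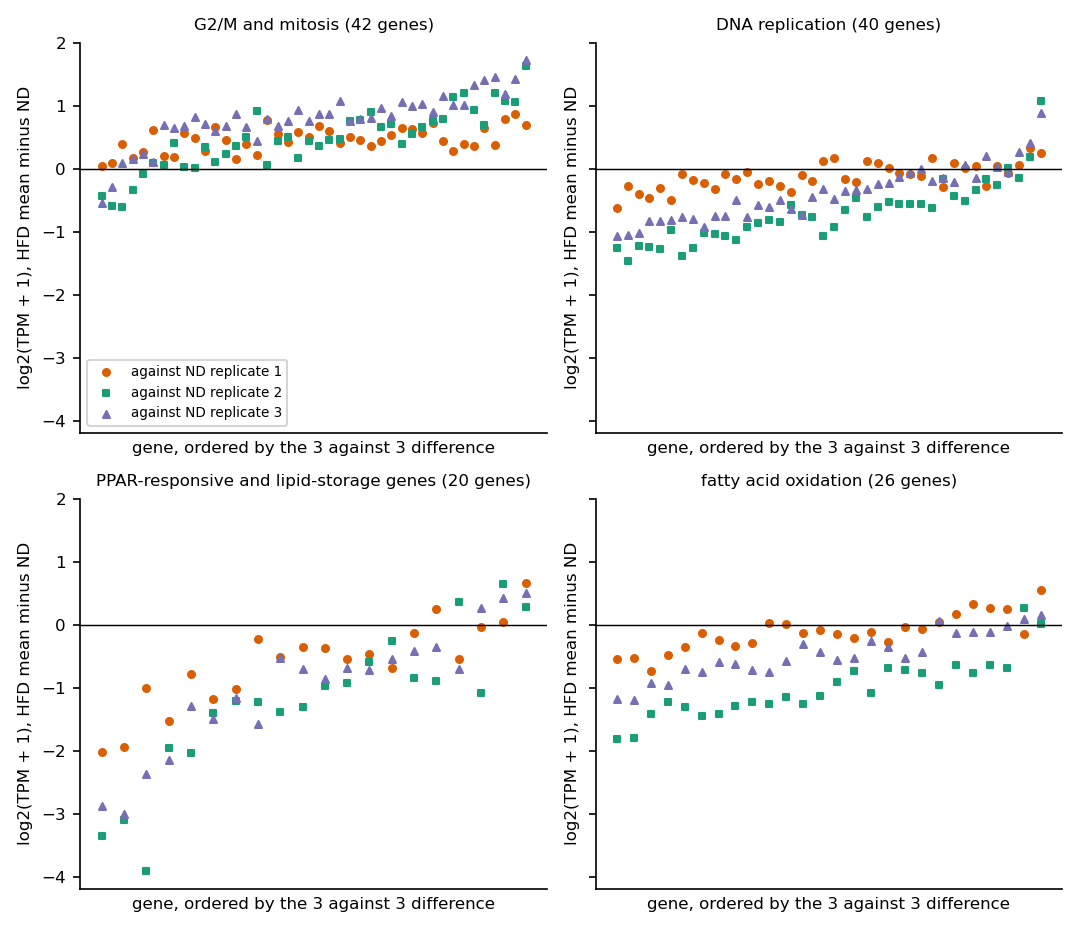
Log2(TPM + 1) difference of the HFD mean from each ND library (coloured symbols) for the members of 4 gene lists, ordered along the horizontal axis by the 3 against 3 difference. Mitosis genes lie above 0 against all 3 ND libraries in 37 of 42 cases, and fatty acid oxidation genes lie near 0 against ND replicate 1 and well below it against replicate 2.

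Some genes of glucose use rose. The glycolysis list here also holds genes of glucose uptake and pyruvate control, and of its 21 members 3 rose (14.3%) and 0 fell. Its median lay 0.368 above that of all genes, and 0.473, 0.376 and 0.550 above it against ND replicates 1 to 3. Slc2a1, the glucose transporter GLUT1, was 25.7, 29.7 and 29 TPM in ND and 47.3, 40.8 and 40.5 TPM in HFD (log2 0.59, SE 0.15, limma adjusted p = 0.0306). Pdk1, a kinase that holds pyruvate back from the mitochondrion, was 57.8, 81.2 and 59.6 TPM in ND and 96.8, 119 and 86.3 TPM in HFD (log2 0.60, SE 0.17, limma adjusted p = 0.0443), and Pgk1, phosphoglycerate kinase, was 405, 513 and 431 TPM in ND and 839, 865 and 513 TPM in HFD (log2 0.68, SE 0.20, limma adjusted p = 0.0449). All 3 genes were higher in each HFD library than in any ND library, though HFD replicate 3 of Pgk1 barely exceeded ND replicate 2. No glycolysis gene was 1.5-fold above each ND library. The list's rises numbered 4, 1 and 5 under median-ratio scaling, quantile normalization and GC removal. They numbered 1 without ND replicate 1 or 2, 0 without ND replicate 3, HFD replicate 1 or HFD replicate 2 and in the fit of 6 libraries, and 7 without HFD replicate 3, while 9 of the 21 had an unadjusted p under 0.05 with all libraries.

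PPAR-responsive and lipid-storage genes had a lower median against every ND library. Of 20 genes 11 fell (55.0%) and 0 rose, the median relative to all genes was -0.623, and against ND replicates 1 to 3 it was -0.412, -0.908 and -0.615. The list, like the others, was chosen with earlier results of these data known. Of the 20, 7 genes were at least 1.5-fold below each ND library alone. Ucp2, a carrier of the inner mitochondrial membrane, was 361, 423 and 449 TPM in ND and 157, 149.6 and 173 TPM in HFD (log2 -1.35, SE 0.16, limma adjusted p = 0.00138), and Angptl4, a secreted inhibitor of lipoprotein lipase, was 88.1, 119 and 136 TPM in ND and 24.3, 26.1 and 43 TPM in HFD (log2 -1.87, SE 0.22, limma adjusted p = 0.00138). In both of them the groups were well separated. With Aqp7 they were the 3 of smallest p. The count of falls in this list was 8, 10 and 7 under the 3 scalings, 7 in the fit of 6 libraries, and 3 without ND replicate 3 or HFD replicate 2.

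Fatty acid oxidation depended on which ND library it was set against. Of 26 genes 6 fell (23.1%), and the median relative to all genes was -0.0221 against ND replicate 1, -0.869 against replicate 2 and -0.422 against replicate 3. Mlycd, which breaks down malonyl-CoA, was 39.4, 96.1 and 62.9 TPM in ND and 23.3, 25.9 and 33 TPM in HFD (log2 -1.17, SE 0.26, limma adjusted p = 0.0195). Cpt2, the inner-membrane carnitine palmitoyltransferase, was 31, 75.4 and 48.5 TPM in ND and 16.9, 19.9 and 27.3 TPM in HFD (log2 -1.17, SE 0.27, limma adjusted p = 0.0215). Ech1, a dienoyl-CoA isomerase, was 263, 441 and 364 TPM in ND and 174, 171 and 223 TPM in HFD (log2 -0.89, SE 0.19, limma adjusted p = 0.0173). In each of the 3 ND replicate 2 was the highest library and ND replicate 1 the lowest of its group. Without ND replicate 1 18 of the 26 fell, without ND replicate 2 2, and without ND replicate 3, HFD replicate 1 or HFD replicate 2 0, while 17 had an unadjusted p under 0.05 with all libraries. In the fit of 6 libraries 1 of the 26 fell.

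Downstream of both fuels, the core of the mitochondrion did not pass the test. Of 19 TCA cycle genes, 42 nuclear respiratory chain genes and 21 genes of branched-chain amino acid breakdown 0 passed in limma, against 1, 0 and 1 at an unadjusted p under 0.05. Relative to all genes the respiratory chain median was 0.393 against ND replicate 1, -0.08 against replicate 2 and 0.0618 against replicate 3, and that of the TCA cycle 0.458, -0.17 and 0.209. The TCA enzyme Ogdh was 199.7, 372 and 224 TPM in ND and 152, 154 and 175 TPM in HFD (log2 -0.67, limma adjusted p = 0.0779). Bnip3, a mitophagy receptor of the outer membrane that hypoxia raises, was 45.4, 69.3 and 65.9 TPM in ND and 97.2, 135 and 96.3 TPM in HFD (log2 0.86, SE 0.20, limma adjusted p = 0.0199), clear of every ND library. Mtfp1, a fission protein, changed by -1.33 and Rhot2, which anchors mitochondria to motors, by -0.80. Of 58 mitochondrial ribosomal proteins 3 fell (5.17%), Mrpl36 by the most (log2 -1.20, SE 0.27, limma adjusted p = 0.0194).

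Lipid synthesis and peroxisome lists held falls of single genes, with medians near that of all genes. Of 21 peroxisome genes 3 fell (14.3%). Pex6, an ATPase that recycles the import receptor, was 28.2, 33 and 34.2 TPM in ND and 13.7, 10.5 and 19.5 TPM in HFD (log2 -1.12, SE 0.21, limma adjusted p = 0.012). All HFD libraries lay below all ND libraries. The membrane protein Pxmp4 changed by -0.74. Of 32 phospholipid and sphingolipid genes 6 fell (18.8%), among them Agpat1 and Agpat2, which make phosphatidic acid, by -1.08 and -0.83, and Taz, here tafazzin, which remodels cardiolipin, by -1.11 (changes on the log2 scale). Agpat1 was 43.8, 61.1 and 56.8 TPM in ND and 23.4, 20.5 and 31.3 TPM in HFD (limma adjusted p = 0.00934). Of 32 genes that make cholesterol and fatty acids 4 fell (12.5%), including Mvk, mevalonate kinase (-0.83), Dhcr7, the last step to cholesterol (-1.09), and Fads2, a desaturase (-0.72). Among 21 amino acid transporters 4 fell (19.0%), and Slc7a7, a cationic amino acid carrier that macrophages also express, was 14.7, 16.6 and 19 TPM in ND and 6.60, 5.36 and 8.21 TPM in HFD (log2 -1.21, SE 0.21, limma adjusted p = 0.00934). The glutamine carrier Slc38a3 and the glycine carrier Slc6a9 changed by -0.98 and -0.82. Of the 24 called genes named in the paragraphs on fuel use, 13 passed when ND replicate 2 was left out, 3 when ND replicate 3 was, 5 when HFD replicate 1 was and 3 when HFD replicate 2 was, and 19 passed under quantile normalization. The fit of 6 libraries kept 8 of the 24.

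The markers of mural cells, the pericytes and smooth muscle of vessels, were mixed. Of 11 markers 4 fell (36.4%) and 0 rose, with a median of -0.44 relative to all genes, and 3 of the 11 were at least 1.5-fold below each ND library. Rgs5, a G protein regulator that marks pericytes, was 224, 284 and 246 TPM in ND and 86.6, 106 and 192 TPM in HFD (log2 -1.04, SE 0.24, limma adjusted p = 0.0195), and Pdgfrb, the PDGF receptor through which pericytes are recruited, was 114, 108 and 113 TPM in ND and 61.8, 60.4 and 95.1 TPM in HFD (log2 -0.65, SE 0.18, limma adjusted p = 0.0391). HFD replicate 3 was nearest to ND in both. Kcnj8, given above, was another of the 4. In 3 of the 11 the HFD mean was above all 3 ND libraries, among them the smooth muscle genes Acta2 (0.51, limma adjusted p = 0.167) and Tagln (0.26, limma adjusted p = 0.383, no overlap), both named after their values were seen. Only 1 of the 11 fell without ND replicate 2, ND replicate 3, HFD replicate 1 or HFD replicate 2, and 2 fell and 1 rose with the GC trend removed. The summed TPM of the 11 markers was 2067 to 2389 in ND and 2303 to 2674 in HFD, so the sum, which the most abundant markers set, was not lower. Of the endothelial markers, the VEGF receptor Kdr was 327, 317 and 310.3 TPM in ND and 226, 246 and 276 TPM in HFD and the tight junction protein Cldn5 was 400.4, 244 and 458 TPM in ND and 197, 182 and 308 TPM in HFD (limma adjusted p = 0.114 and 0.0849).

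Of 32 semaphorins, plexins and ephrins 4 fell (12.5%), a share near that of all genes. Sema3g, a semaphorin of arterial endothelium, was 39.8, 45.1 and 62.6 TPM in ND and 17.1, 13.2 and 23.8 TPM in HFD (log2 -1.41, SE 0.23, limma adjusted p = 0.0088), and Nrp2, a co-receptor for semaphorins and VEGF, was 105, 102 and 93.2 TPM in ND and 59.1, 58.4 and 75.4 TPM in HFD (log2 -0.64, SE 0.17, limma adjusted p = 0.0298). Sema6c changed by -0.73 and was below every ND library. Of 20 Notch genes 3 fell (15%) and 0 rose. Heyl, a target of Notch in mural cells, was 27.4, 43.1 and 35.3 TPM in ND and 17.3, 16.9 and 15.6 TPM in HFD (log2 -1.02, SE 0.18, limma adjusted p = 0.0104), while Rfng, which glycosylates Notch, and Notch4, the endothelial receptor, changed by -0.78 and -0.69. The Notch list's own median lay 0.0661 above that of all genes. Relative to all genes it was -0.188, 0.297 and 0.131 against ND replicates 1 to 3.

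Of 32 genes of cAMP and cGMP signalling 6 fell (18.8%) and 0 rose, with 4 at least 1.5-fold below each ND library. Adcy7, an adenylyl cyclase of blood cells and other tissues, was 4.32, 7.32 and 7.72 TPM in ND and 1.89, 1.88 and 2.36 TPM in HFD (log2 -1.26, SE 0.23, limma adjusted p = 0.0104). Adcy4, an adenylyl cyclase found in endothelium, was 107, 72.4 and 81.4 TPM in ND and 41.7, 41.7 and 57 TPM in HFD (log2 -0.88, SE 0.19, limma adjusted p = 0.0171), and the phosphodiesterase Pde4a changed by -1.24. Arhgef15, an exchange factor of endothelium, was 61.8, 61 and 71.9 TPM in ND and 38.1, 34.6 and 31.6 TPM in HFD (log2 -0.88, SE 0.15, limma adjusted p = 0.00979). The HFD libraries of each gene lay below all ND libraries. Of the 13 called genes named from the mural, guidance, Notch and cyclic nucleotide lists and with Arhgef15, 9 passed when ND replicate 2 was left out, 1 when ND replicate 3 was, 4 when HFD replicate 1 was and 1 when HFD replicate 2 was. The fit of 6 libraries kept 7 of the 13.

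Leukocyte genes were lower in HFD against each ND library. Of 14 markers 12 fell (85.7%), and all 14 were below every ND library without overlap, against 22.8% of all genes. The median relative to all genes was -0.717 (-0.700, -0.496 and -1.07 against ND replicates 1 to 3). Csf1r, the receptor macrophages need to survive, was 45.7, 51.5 and 59.5 TPM in ND and 16.7, 15.6 and 25.8 TPM in HFD (log2 -1.41, SE 0.23, limma adjusted p = 0.00863). Lyz2, lysozyme of myeloid cells, was 111, 119 and 145 TPM in ND and 60.4, 59.1 and 60.9 TPM in HFD (log2 -1.03, SE 0.17, limma adjusted p = 0.0088), and Adgre1, the macrophage antigen F4/80, changed by -1.35. Under median-ratio scaling, quantile normalization and GC removal 7, 6 and 6 of the 14 fell, and without ND replicate 3 or HFD replicate 2 0 did, although 14 had an unadjusted p under 0.05 with all libraries. In the fit of 6 libraries 4 of the 14 fell.

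Some signalling genes that leukocytes also express fell, and the part of the leukocyte markers in these results was not tested. Of 26 JAK-STAT and SOCS genes 6 fell (23.1%) and 0 rose, although the median of the list was 0.207 above the median over all genes. Stat6, which carries the signal of interleukin-4, was 31.7, 62.2 and 52.2 TPM in ND and 16.1, 15.6 and 21.2 TPM in HFD (log2 -1.37, SE 0.22, limma adjusted p = 0.00839). Jak3, the kinase of the common gamma chain, was 47.4, 37.1 and 39.5 TPM in ND and 20.5, 18 and 25.4 TPM in HFD (log2 -0.93, SE 0.19, limma adjusted p = 0.0141), and Socs5, a feedback inhibitor, changed by -1.24. Of 20 integrins 2 fell (10%), as large a share as among all genes. Their median was -0.268 relative to all genes, and -0.274, -0.15 and -0.33 against ND replicates 1 to 3. Itgb2, the beta-2 chain of leukocytes, was 5.32, 7.07 and 8.98 TPM in ND and 2.33, 2.27 and 3.56 TPM in HFD (log2 -1.12, SE 0.24, limma adjusted p = 0.0151), and its partner Itgal changed by -1.18. Jak3 and both integrins were lower in every HFD library than in any ND library.

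Of 26 genes in the interferon-stimulated list, which also holds the signalling factor Irf3, 4 fell (15.4%). Gbp2, a GTPase that interferon gamma raises, was 11.5, 13.4 and 13.9 TPM in ND and 7.05, 7.94 and 8.14 TPM in HFD (log2 -0.68, SE 0.18, limma adjusted p = 0.0317), Oas1a, an RNA sensor, changed by -0.95 and Irf3, also given above, by -1.22. Of 34 lysosomal genes 3 fell (8.82%), among them Cln3, a lysosomal membrane protein (log2 -1.07, SE 0.19, limma adjusted p = 0.00943), and Ctss, a protease of antigen-presenting cells (log2 -0.94, SE 0.19, limma adjusted p = 0.0132). The TNF receptors Tnfrsf1a and Tnfrsf1b changed by -0.51 and -0.80, against the rise of Tnfrsf12a by 1.28. In the complement and coagulation list C5ar1, the receptor for the fragment C5a, fell (-0.96) and F3, tissue factor, rose from 8.92, 8.47 and 4.95 TPM in ND to 12.2, 13.6 and 17 TPM in HFD (log2 0.88, SE 0.23, limma adjusted p = 0.03). Of the 18 called genes named in the paragraphs on immune genes, 12 passed when ND replicate 2 was left out, 0 when ND replicate 3 was, 6 when HFD replicate 1 was and 0 when HFD replicate 2 was, where all 18 had an unadjusted p under 0.05. The fit of 6 libraries kept 11 of the 18.

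Of 22 genes of the dystrophin complex and costamere, which link the sarcomere to the matrix, 5 fell (22.7%) and 0 rose, with a median of -0.229 relative to all genes. Dysf, dysferlin, which reseals the muscle membrane, was 71.4, 67.7 and 64.7 TPM in ND and 37.5, 40.0 and 40.7 TPM in HFD (log2 -0.77, SE 0.17, limma adjusted p = 0.0179), with both groups tight and apart. Pomt2, an enzyme that glycosylates dystroglycan, changed by -0.74. That list's median relative to all genes was 0.0835 against ND replicate 1, -0.469 against replicate 2 and -0.118 against replicate 3. Among 38 focal adhesion and actin regulators 1 rose (2.63%) and 2 fell (5.26%): Flnc, filamin C of the Z-disc, was 108, 115 and 81.1 TPM in ND and 191, 171 and 137 TPM in HFD (log2 0.71, SE 0.18, limma adjusted p = 0.0283), while Tln1, talin, was 173, 176 and 173 TPM in ND and 112, 106 and 125 TPM in HFD (log2 -0.61, SE 0.15, limma adjusted p = 0.0252) and Vasp changed by -0.50. The ND libraries of Tln1 were close together, and the HFD mean differed from them by -0.60, -0.63 and -0.60.

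At the intercalated disc, where heart muscle cells join, Pkp2, a desmosomal protein, was 52.8, 93.2 and 57.4 TPM in ND and 101, 111 and 102 TPM in HFD (log2 0.66, SE 0.19, limma adjusted p = 0.0451), and ND replicate 2 lay close to the HFD libraries. Ctnnb1, beta-catenin, was 383, 696 and 639 TPM in ND and 319, 355 and 353 TPM in HFD (log2 -0.70, SE 0.20, limma adjusted p = 0.0453). Neither held at 1.5-fold against all 3 ND libraries. The sarcomere gene Actn2 was 759, 1024 and 725 TPM in ND and 1105, 1059 and 968 TPM in HFD (limma adjusted p = 0.249). Of 34 primary cilium genes 3 fell (8.82%), a share below that of all genes. Ift27, Ift122 and Ift172 changed by -0.92, -1.06 and -1.07, and each was at least 1.5-fold below each ND library. Of 25 matrix proteases and inhibitors 6 fell (24%). Mmp11, stromelysin-3, was 19.2, 26.4 and 21.9 TPM in ND and 10.5, 9.53 and 12.3 TPM in HFD (log2 -0.99, SE 0.18, limma adjusted p = 0.0108), and the sheddase Adam19 and the fibrillin-binding Adamts10 changed by -1.27 and -0.89. Of the 13 called genes named in the paragraphs on structure, 8 passed when ND replicate 2 was left out, 0 when ND replicate 3 was, 1 when HFD replicate 1 was and 0 when HFD replicate 2 was, where all 13 had an unadjusted p under 0.05. The fit of 6 libraries kept 5 of the 13.

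Sfrp2, a secreted Wnt antagonist of mesenchymal cells, was 329, 221 and 241 TPM in ND and 66, 70.6 and 174 TPM in HFD (log2 -1.47, SE 0.30, limma adjusted p = 0.0144), with HFD replicate 3 nearest to ND and still below it. Dvl1 and Dvl2, which relay Wnt signals in the cell, changed by -0.64 and -0.65. Of 31 Wnt genes 4 fell (12.9%) and 0 rose, with a median 0.0454 above that of all genes. Nfatc4, a transcription factor that calcineurin frees, was 16.2, 17.9 and 21.2 TPM in ND and 6.74, 4.92 and 10.2 TPM in HFD (log2 -1.27, SE 0.23, limma adjusted p = 0.0104), and Camk1, a calmodulin kinase, changed by -0.57. In the list of calcineurin, CaMK and MEF2 signalling 3 of 25 genes fell (12%) and 1 rose (4%). Its median lay 0.174 above that of all genes. Srf, the serum response factor, was 99.6, 85.9 and 93.2 TPM in ND and 153, 141 and 118 TPM in HFD (log2 0.55, SE 0.15, limma adjusted p = 0.0333), with no overlap. The retinoic acid receptor Rarg changed by -0.78 and Tgfb3, a TGF-beta ligand, by -0.70. Of 30 nuclear receptors 3 fell (10%), and of 32 TGF-beta and BMP genes 1 fell (3.12%), shares near or below that of all genes. Arrb1 and Arrb2, the arrestins that quench G protein-coupled receptors, changed by -0.98 and -1.06, and the regulator Rgs19 by -1.04. Of 27 regulators of G protein signalling 5 fell (18.5%) and 0 rose, with a median of -0.0286 relative to all genes.

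In the PI3K, AKT and mTOR list, 31 genes with a median 0.403 above that of all genes, 1 rose and 1 fell (3.23% each). Sesn1, a sestrin that restrains mTORC1, was 146, 59.4 and 57.5 TPM in ND and 145, 163 and 266 TPM in HFD (log2 1.20, SE 0.31, limma adjusted p = 0.0304), and ND replicate 1 lay within the HFD range. The list's count of rises was 7, 4 and 6 under median-ratio scaling, quantile normalization and GC removal, and its median against ND replicate 1 alone was 0.0557 relative to all genes. Of the 12 called genes named in the paragraphs on signalling, 6 passed without ND replicate 2 and 0 without ND replicate 3, HFD replicate 1 or HFD replicate 2, where all 12 had an unadjusted p under 0.05. The fit of 6 libraries kept 5 of the 12.

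Lists of RNA and protein production held few calls. Of 56 cytosolic ribosomal proteins, 32 proteasome subunits, 14 CCT chaperonin and prefoldin subunits and 33 SR and hnRNP splicing factors 0 passed limma's test, with 0, 0, 0 and 5 at an unadjusted p under 0.05. Of 20 cytosolic tRNA synthetases 2 fell (10%) and 7 had an unadjusted p under 0.05. Below ND without overlap were 9 of the 20, against 22.8% of all genes. Of 34 translation initiation factors 1 rose (2.94%), and of 38 ribosome biogenesis genes 1 rose and 1 fell (2.63% each), with 5 rising under median-ratio scaling. The splicing factors had a median 0.312 above that of all genes and 4 of them rose under median-ratio scaling. Srsf3 was 179.8, 167 and 152 TPM in ND and 206, 239.8 and 204 TPM in HFD (limma adjusted p = 0.0984), without overlap. Relative to all genes, the ribosomal protein median was 0.103, 0.595 and -0.0989 against ND replicates 1 to 3.

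Smarcb1, Smarcd3 and Smarcc2, subunits of the SWI/SNF complex, were the 3 of 26 remodeller genes that fell (11.5%, near the share of all genes). Smarcb1 was 56.7, 75.5 and 74.6 TPM in ND and 39.6, 38.9 and 38.1 TPM in HFD (log2 -0.80, SE 0.16, limma adjusted p = 0.0137), and Smarcd3 and Smarcc2 changed by -0.78 and -0.74. Each of the 3 was short of 1.5-fold against ND replicate 1. Of 24 histone acetylation enzymes 3 fell (12.5%) and 1 rose (4.17%). Kat2a, the acetyltransferase GCN5, was 38.7, 40.3 and 39.2 TPM in ND and 25.6, 23.7 and 24.1 TPM in HFD (log2 -0.67, SE 0.15, limma adjusted p = 0.0202), the deacetylase Hdac10 changed by -0.68, and Crebbp, the CREB-binding protein, rose by 0.85 with ND replicate 1 (57.8 TPM) close to the HFD libraries. Med20, of the Mediator complex, was 12.7, 19.9 and 17.8 TPM in ND and 7.15, 7.05 and 7.80 TPM in HFD (log2 -1.07, SE 0.19, limma adjusted p = 0.0101).

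Chaperones went both ways. Hsp90aa1, the inducible HSP90, and Hspb1, HSP27, rose by 0.82 and 1.01, and ND replicate 1 was the highest ND library in both, as in the sum of the stress-gene list above. Against ND replicate 1 their differences were 0.37 and 0.21. Hyou1, a chaperone of the endoplasmic reticulum, fell (-0.77), as did Bop1, a ribosome assembly factor (-0.87), and Cul7, a cullin scaffold (-0.77). Of the 12 called genes named in the paragraphs on gene expression and chaperones, 3 passed without ND replicate 2 and 0 without ND replicate 3, HFD replicate 1 or HFD replicate 2, where all 12 had an unadjusted p under 0.05. The fit of 6 libraries kept 3 of the 12.

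**Figure D5:**
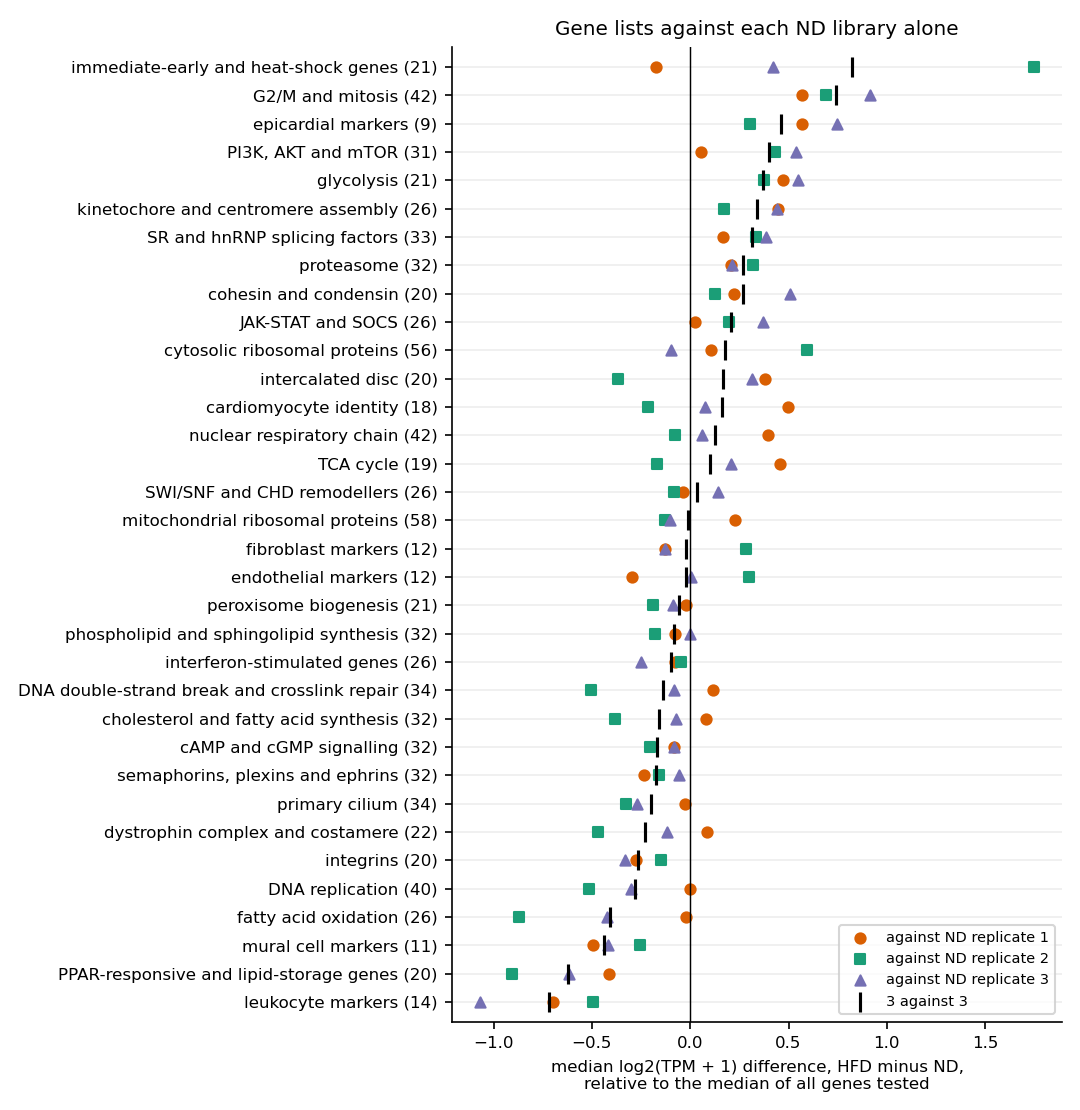
Median log2(TPM + 1) difference of 34 gene lists (members tested in brackets) relative to the median of all 13615 genes, for the HFD mean against each ND library alone (coloured symbols) and 3 against 3 (black bars). The G2/M and mitosis list lies above 0 (0.568 to 0.912) and the leukocyte list below 0 (-1.07 to -0.496) against each ND library, whereas the immediate-early and heat-shock genes run from -0.174 to 1.75.

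Some called genes leaned on part of the ND group. The 5 of smallest p that were short of 1.5-fold against ND replicate 1 were Gpr182, Tmem86a, Hyal2, Galnt2 and Smarcb1, all lower in HFD. Gpr182, a receptor of endothelial cells, was 24.8, 39.8 and 39 TPM in ND and 16.5, 17 and 15.8 TPM in HFD (log2 -1.0, SE 0.19, limma adjusted p = 0.0118), and Galnt2, which starts O-glycans, was 41.1, 78.3 and 65.1 TPM in ND and 26.5, 26.6 and 31.3 TPM in HFD (log2 -1.06, SE 0.21, limma adjusted p = 0.013). In both the HFD libraries were still below ND replicate 1. Hyal2, a hyaluronidase, and Tmem86a changed by -0.86 and -0.94.

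Short of 1.5-fold against ND replicate 2 were Sept4, Nos3, Cracr2b, S100a16 and Tmem254b. Nos3, the nitric oxide synthase of endothelium, was 156, 123 and 149 TPM in ND and 92.3, 79.1 and 87.5 TPM in HFD (log2 -0.71, SE 0.16, limma adjusted p = 0.0179), with no overlap. Sept4, a septin, and S100a16, a calcium-binding protein, changed by -0.71 and -0.68, and Cracr2b and Tmem254b by -0.79 and -0.62. Short of it against ND replicate 3 were Tpsb2, Tmem106c, Art3, Polrmt and Pld2. Tpsb2, a tryptase of mast cells, was 47.9, 42 and 29.3 TPM in ND and 18.5, 21.8 and 23.9 TPM in HFD (log2 -0.84, SE 0.20, limma adjusted p = 0.0233), and Polrmt, the RNA polymerase of mitochondria, was 14.4, 17.6 and 12.5 TPM in ND and 8.40, 8.34 and 8.29 TPM in HFD (log2 -0.75, SE 0.19, limma adjusted p = 0.0263). Art3, an ADP-ribosyltransferase relative, was the one rise among the 15, from 166, 147 and 203 TPM in ND to 237, 300.5 and 292 TPM in HFD (log2 0.68, SE 0.17, limma adjusted p = 0.0255). Pld2, a phospholipase D, and Tmem106c changed by -0.65 and -0.61. Of the 15 genes, 10 passed when ND replicate 2 was left out, 0 when ND replicate 3 was, 1 when HFD replicate 1 was and 0 when HFD replicate 2 was, where all 15 had an unadjusted p under 0.05. The fit of 6 libraries kept 7 of the 15.

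The called genes also differed from other genes in base composition and level. Genes that fell had a median transcript GC content of 53.4%, those that rose 49.2% and all other genes tested 49.9%, over the 13318 genes (97.8%) with a GENCODE transcript on GRCm38. In 5 equal groups of genes from the lowest to the highest GC content, 4.24%, 5.52%, 9.65%, 14.6% and 14.3% of genes fell. The rank correlation of GC content with the log2 difference across genes was -0.17 for 3 against 3, and -0.412, 0.0546 and -0.215 against ND replicates 1 to 3, genes not being independent. In 5 equal groups from the lowest to the highest mean TPM, 11.8%, 14.7%, 11.2%, 7.09% and 3.05% of genes fell and 0.771%, 1.32%, 0.698%, 1.58% and 2.13% rose. The part of base composition in the results for single genes was not tested beyond the removal of a GC trend. With that trend removed 1046 of the 1462 called genes with a GC value still passed. All 1462 kept their direction, which their selection on the same libraries makes likely.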

How the data were processed

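Gene expression of newborn cardiomyocytes was read from a deposited table of TPM values, which the authors made per gene and library. The submitters' processing notes name RSEM 1.3.1 and the build GRCm38, with no role given. Which aligner and annotation were used is not given in the sources used here, and TPM keeps no depth. Genes averaging 1 TPM or more in the 6 HFD and ND libraries were tested on log2(TPM + 1) with limma 3.58.1 in R 4.3.3, with an intensity trend, all 9 libraries in the fit and Benjamini-Hochberg adjustment over all genes at 0.05. The procedure was tested on simulated data in which every gene varied independently, so deviations shared by the genes of a library were not covered.

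Genes named by rule came from several sets. The steady set was the 15 rises and 15 falls of smallest p with an absolute log2 difference under 1.3 and at least 1.5-fold from each ND library. The leaning set was the 5 of smallest p short of 1.5-fold against each ND library. Genes of both sets averaged 5 TPM or more. Also named were up to 3 genes of smallest p in each of 78 gene lists, for which only the filter at 1 TPM held, and Nppb and Car3. Members and lists were chosen with earlier results of these data known. Alternatives changed the pseudocount, filter, scaling, libraries and model, and the removal of a GC trend was added after seeing the data. A few genes and 1 list that the rule named are not reported here.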

Additional observations from a re-analysis of the deposited data

How the results depend on the processing

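The number of genes past the threshold depended on the settings. The 1479 genes kept their sign under every setting in which they were tested. Their selection by p on these same libraries made that likely beforehand. Without a filter on low values 804 genes passed (82 higher, 722 lower), and in the fit of the 6 HFD and ND libraries 456 (39 higher, 417 lower). Genes higher in HFD numbered 672 after median-ratio scaling, 438 after quantile normalization and 652 with the GC trend removed, and genes lower numbered 656 after quantile normalization. Genes at least 1.5-fold from each ND library in one direction, 768 as reported, numbered 254 with a pseudocount of 5, 487 after quantile normalization and 507 with the GC trend removed. The cause was not tested.

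When 1 library at a time was left out, between 33 and 3816 genes passed, 4 to 998 of them higher and 29 to 2818 lower; the sHFD libraries, which only lend their spread, moved the total to between 873 and 1202. Genes without overlap ranged from 3791 to 7202 and genes at least 1.5-fold from each ND library from 648 to 2715. The first of these cannot shrink with fewer libraries, by construction, and without HFD replicate 3 the counts were 5971 and 1217. Against ND replicate 1 alone 3 genes passed (1 higher, 2 lower), 7274 did not overlap and 1545 differed 1.5-fold. Against ND replicate 2 alone the numbers were 3010 (530 higher, 2480 lower), 10023 and 4781, and against ND replicate 3 alone 1565 (482 higher, 1083 lower), 9636 and 4014.

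The labels number the replicates 1 to 3 in each diet, but deviations of same-numbered ND and HFD libraries correlated at -0.0814, 0.248 and -0.29, so the numbers were not taken to pair the samples. With a replicate block 1671 genes passed (192 higher, 1479 lower), and 1389 of the 1479 were among them. TPM keeps no depth, so counting error in low genes could not be separated from the spread between libraries.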
